A study of Equus caballus with 4 samples.

Results

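The genes considered here encode enzymes that write or remove marks on histones and DNA: histone deacetylases, lysine demethylases, lysine and arginine methyltransferases, DNA methyltransferases, TET dioxygenases and the PRDM family. They were chosen by symbol alone, as all probes of the horse array whose gene name starts with HDAC, KDM, KMT, SETD, PRMT, DNMT, JMJD or PRDM (followed by a number where the family is numbered), together with TET1 to TET3, EZH1 and EZH2. The rule took 112 probes of 63 genes out of 24998 gene names on the array. The rule reads no measured value, but it was set with earlier results of these data known. Of these genes, 49 were tested, on 84 probes, since at least 1 dye channel was well above background on all 4 arrays. The other 14 were not.

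The cells were equine satellite cells, the resident stem cells of skeletal muscle, from m. semitendinosus of young stallions, examined on day 3 of differentiation. One group was kept for 24 h with 50 µM HMB (β-hydroxy-β-methylbutyrate, made in the body from leucine) and then received 3 mM H2O2 for the last 1 h, while the control group received H2O2 alone, so that no group without oxidative stress enters the comparison. Both RNAs were hybridized together, HMB in Cy5 and control in Cy3, on 4 arrays of 1 slide, and each array gives 1 log2 ratio per probe, positive where the signal was higher with HMB. The dyes were never swapped, so treatment and dye cannot be told apart. The control carries the same replicate number on every array, cultures were preselected for quality, and the 4 arrays need not represent 4 horses, hence p-values measure only the spread between these arrays.

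Acetylation of histone tails opens chromatin, and HDACs reverse it. Class I HDACs sit in nuclear corepressor complexes, whereas class IIa HDACs shuttle out of the nucleus and hold the MEF2 factors of muscle in check. Methylation can be activating (H3K4, H3K36) or repressive (H3K9, H3K27) depending on the residue, and it is written by SET domain proteins and erased by flavin-dependent or JmjC demethylases. In satellite cells, EZH2 and class I HDACs are known to restrain muscle genes until differentiation starts, while KDM6 demethylases, SETD7 and arginine methyltransferases take part in switching them on. DNMT3A writes new DNA methylation and TET enzymes oxidize it.

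The muscle label was checked on marker genes. Of 12 muscle lineage markers, 9 were tested, including *myod1* and *myog*, and 5 of 5 endothelial markers on the array were not tested for lack of signal. The markers were not balanced between the groups: 7 of 9 muscle genes were lower with HMB (*des*, the muscle intermediate filament, with a log2 ratio of -1.22), and the median ratio of the list lay between -1.29 and -0.80 on the arrays. Of 6 tested fibroblast markers, 4 were higher, with the list's median between 0.46 and 0.80, although *lum* among them turned to -0.034 under spike-in scaling. Of 3 tested leukocyte markers 2 were higher, with medians between 0.39 and 0.57, but only 1 of these stayed above 0 under that scaling. Among the defining leukocyte genes, *itgam*, *cd3e* and *aif1* were not tested for lack of signal. Fewer muscle cells and less muscle RNA per cell cannot be told apart in RNA from whole cultures, and the part of these shifts in the results below was not tested.

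A gene was called when its adjusted p (limma, Benjamini-Hochberg over 14107 genes) was at most 0.05 and its fold change (FC) at least 1.3. By this rule 18 of the 49 tested members were called, 6 higher and 12 lower with HMB. Over all genes tested, 28.6% were called, 12.4% higher and 16.2% lower. The median log2 ratio of the members was -0.13 against -0.06 for all genes, and it lay between -0.17 and -0.10 on single arrays. All 18 called members had the same sign on the 4 arrays, and 29 of the 49 members did, which is 59.2% and is near the 60.5% of all genes.

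The count changed with the processing. Of the 18 called members, 7 had a tested probe with a dye that was not well above background on every array, and 11 had none. When the same spots were corrected by normexp with an offset of 50 and then loess, 1 member was called (0 higher, 1 lower), and when background was left in place before loess, 3 were (2 higher, 1 lower). Of all genes, normexp called 12.8% (7.29% higher, 5.47% lower), and 16.9% were called with background left in place (10.5% higher, 6.42% lower). Scaling to the spike-in RNA moved the median of all genes by -0.49 on the log2 scale, and then 38 members were called lower and 0 higher, with 73.6% of all genes called (69.0% lower, 4.61% higher). A test against the FC threshold itself (limma's treat) called 4 members, 1 higher and 3 lower, against 10.8% of all genes (5.81% higher, 5.0% lower), and the methods' t-test called 12, against 19.3%. With both dyes required above background 13 of 43 members were called, against 25.9% of all genes. Without the probes that had a dye well above background on no array, an alternative added after seeing the data, 17 members were called, against 27.7% of all genes. Without array 1, 2, 3 or 4, in turn, 16, 18, 16 and 16 members were called, against 28.7%, 26.5%, 26.6% and 28.5% of all genes. Every "higher" and "lower" below is therefore relative to the bulk of the RNA on the array.

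**Figure D1:**
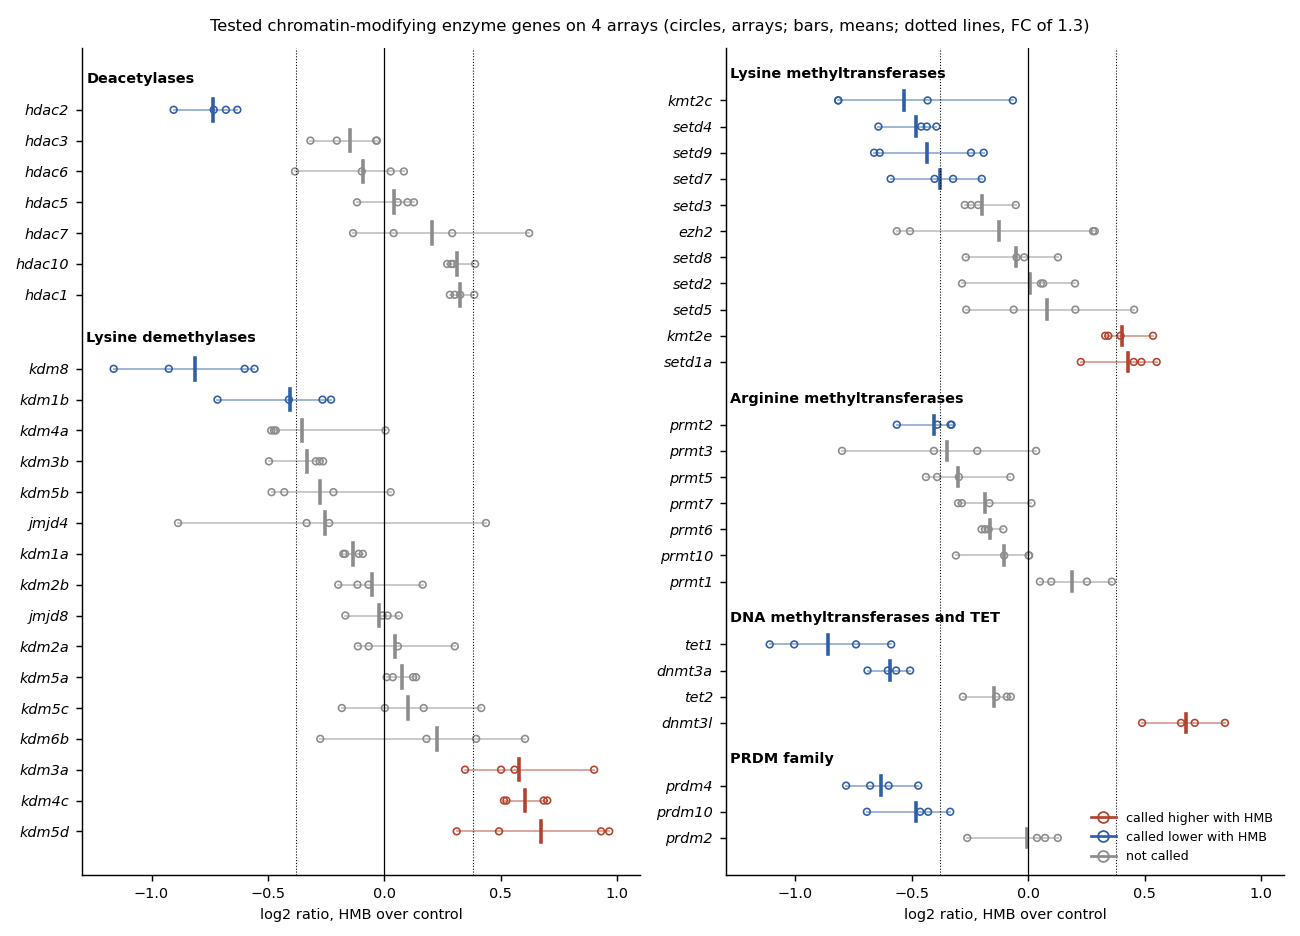
Log2 ratio (HMB over control) of 48 of the 49 tested members, by enzyme family. Circles are the 4 arrays, thick bars the means, dotted lines an FC of 1.3 in either direction, red and blue the called genes. The 12 genes in blue lie below 0 on all arrays and the 6 in red above 0. Under spike-in scaling the means of *setd1a* and *kmt2e* turn negative.

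Of 7 tested histone deacetylases, 1 was called, where 28.6% of all genes were. *hdac2*, a class I deacetylase of the Sin3 and NuRD corepressor complexes, was lower with HMB, with log2 ratios of -0.63, -0.73, -0.90 and -0.68 on arrays 1 to 4. All 4 arrays lay well below 0. The mean was -0.74 ± 0.12 (SD, n = 4), an FC of 1.67 with an adjusted p of 0.000527 (limma). *hdac2* was the only member that stayed called in each of the 18 alternative treatments of the data, with means between -0.77 and -0.63 apart from spike-in scaling, which gave -1.23. Its value was -0.66 after normexp and -0.65 without background correction. Its single probe lies on chr10:57676587-57676646, minus strand, in the genome build named in the scanner files (EquCab1), and both dyes were well above background on all arrays.

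*hdac1*, the close paralog of *hdac2*, had ratios of the opposite sign. Its values were 0.39, 0.30, 0.33 and 0.28, above 0 on all arrays and apart from those of *hdac2* on each. The mean of 0.32 ± 0.05 (adjusted p = 0.00682, limma, n = 4) corresponds to an FC of 1.25 and fell short of the FC threshold. It passed without background correction (0.41) and after median centring without lowess (0.44), and it turned negative, -0.16, under spike-in scaling, which leaves the gap to *hdac2* as it was. *hdac3*, the catalytic subunit of the NCoR complexes, gave -0.035, -0.20, -0.32 and -0.032, a mean of -0.15 ± 0.14 that was not called (adjusted p = 0.157). *hdac8*, the last class I member, was not tested, since for each probe there was an array with neither dye well above background.

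Of the class IIa enzymes, *hdac5* gave 0.10, -0.12, 0.13 and 0.06, with a mean of 0.04 ± 0.11 (adjusted p = 0.656, limma). *hdac7* gave 0.04, 0.29, 0.62 and -0.13, with a mean of 0.20 ± 0.33 (adjusted p = 0.231). The arrays fell on both sides of 0 for both genes, and *hdac9* had no signal well above background in either dye on any array. Of class IIb, *hdac10* had 0.31 (adjusted p = 0.00845, limma, FC of 1.24) and *hdac6*, the cytoplasmic tubulin deacetylase, -0.09 (adjusted p = 0.446). *hdac11*, of class IV, had no signal well above background. By unadjusted p, 3 of the 7 tested deacetylases were below 0.05.

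The lysine demethylases, counted with the JmjC genes *jmjd4* and *jmjd8*, had 3 called members higher and 2 lower among 16 tested. Of all genes, 12.4% were called higher and 16.2% lower. Of those higher with HMB, *kdm3a* and *kdm4c* act on H3K9. *kdm3a*, which removes H3K9 mono- and dimethylation, had log2 ratios of 0.35, 0.56, 0.90 and 0.50 (mean 0.58 ± 0.23, SD, FC of 1.49, adjusted p = 0.00489, limma, n = 4). It was called in 14 of 18 alternatives, among them the one without background correction (0.50). The call was lost after normexp (0.37), under spike-in scaling (0.089), with limma's treat and by the methods' t-test (adjusted p = 0.0535). The adjacent probes of *kdm3a* gave 0.52 and 0.64. *kdm4c*, which acts on H3K9 and H3K36 trimethylation, had 0.68, 0.51, 0.70 and 0.52 (mean 0.61 ± 0.10, FC of 1.52, adjusted p = 0.000947). The value averages 2 probes. One had Cy3 well above background on 1 array only (mean 0.70), so it passed the filter through the HMB dye. The other had both dyes above background throughout and gave 0.73, 0.32, 0.60 and 0.40 (mean 0.51 ± 0.19). The call was kept on the latter alone (adjusted p = 0.00309) and lost after normexp (0.13), without background correction (0.20) and after median centring (0.34, adjusted p = 0.0526). Under spike-in scaling (0.12) and with limma's treat it was lost as well.

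*kdm5d*, the H3K4 demethylase encoded on the Y chromosome, was also higher, at 0.49, 0.97, 0.93 and 0.31 (mean 0.67 ± 0.32, FC of 1.60, adjusted p = 0.00658, limma, n = 4). The arrays spread widely, and each dye was well above background on 3 of the 4 arrays. The call of *kdm5d* was kept in 11 of 17 alternatives. It was lost after normexp (0.20), without background correction (0.26), under spike-in scaling (0.19) and without a filter on dim probes. With limma's treat and by the methods' t-test (adjusted p = 0.0703) it was lost too. The X-linked paralog *kdm5c* gave -0.18, 0.17, 0.42 and 0.0022 and was not called. Cross-hybridization between the paralogs was not tested. Of the other H3K4 demethylases, *kdm1b* was called lower and is given below. The rest did not pass: *kdm5a* had a mean of 0.08 and *kdm5b* -0.28. *kdm1a* (LSD1), the flavin-dependent demethylase of the CoREST complex, had -0.09, -0.17, -0.11 and -0.18 (mean -0.14 ± 0.04, adjusted p = 0.11, limma).

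Lower with HMB were *kdm8* and *kdm1b*. *kdm8*, a JmjC oxygenase also known as JMJD5, had log2 ratios of -0.93, -0.60, -0.56 and -1.16 (mean -0.81 ± 0.29, FC of 1.76, adjusted p = 0.00228, limma, n = 4). Its Cy5 signal was well above background on 2 arrays only and Cy3 on 4, so it passed the filter through the control dye. The ratio can then be only a bound, and the mean was -0.13 after normexp. *kdm1b* (LSD2), the paralog of *kdm1a*, had -0.72, -0.41, -0.23 and -0.27 (mean -0.41 ± 0.22, FC of 1.32, adjusted p = 0.0159). The call was kept in 10 of 18 alternatives. Among others, it was lost without array 1 (mean -0.30), without array 2 (mean -0.40, adjusted p = 0.0504, limma) and by the methods' t-test (adjusted p = 0.0865). The tested *kdm1b* probes lie next to each other in the transcript, and the first of them spans 4406 bases of chr20:16702203-16706608, so it reads across a splice junction. That probe gave -0.45 and was called, while the brighter second probe gave -0.37 and was not. The calls of *kdm1b* and *kdm4c* each rest on a further probe that is not shown. Given here, 5′ to 3′, are the first *kdm1b* probe, the *kdm8* probe on the minus strand of chr13:8274916-8274975 and the brighter *kdm4c* probe on chr23:18597297-18597356.
kdm1b, A_69_P036817: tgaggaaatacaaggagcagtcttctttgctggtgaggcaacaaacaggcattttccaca
kdm8, A_69_P018846: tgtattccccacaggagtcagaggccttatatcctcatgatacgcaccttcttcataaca
kdm4c, A_69_P027012: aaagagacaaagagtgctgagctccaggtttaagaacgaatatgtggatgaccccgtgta

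Of the H3K27 demethylases, *kdm6b* (JMJD3) gave 0.18, -0.28, 0.60 and 0.39, a mean of 0.23 ± 0.38 with an adjusted p of 0.235, and *kdm6a* (UTX) had no signal well above background. The remaining demethylase and JmjC genes, *kdm2a*, *kdm2b*, *kdm3b*, *kdm4a*, *jmjd4* and *jmjd8*, ranged from -0.36 to 0.04 and were not called. Among them *kdm3b*, the paralog of *kdm3a*, had a mean of -0.33 ± 0.11 (adjusted p = 0.0104), and *kdm4a*, the paralog of *kdm4c*, -0.36 ± 0.24 (adjusted p = 0.0299). Both passed on p and missed on FC, and the sign of both was opposite to that of the called paralog.

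All 4 tested genes of the group listed under H3K4 methylation were called, 2 higher and 2 lower, where 28.6% of all genes were. The methods' t-test called 2 of the 4, against 19.3% of all genes. None of the 4 was called after normexp, without background correction or with limma's treat, where 12.8%, 16.9% and 10.8% of all genes were. *setd1a*, a catalytic subunit of the COMPASS complex, had log2 ratios of 0.23, 0.55, 0.45 and 0.49 (mean 0.43 ± 0.14, FC of 1.35, adjusted p = 0.00553, limma, n = 4). *kmt2e* (MLL5), which binds trimethylated H3K4 and is regarded as having little activity of its own, had 0.33, 0.40, 0.54 and 0.34 (mean 0.40 ± 0.09, FC of 1.32, adjusted p = 0.00441). Both exceeded 0 on all arrays and turned to -0.059 and -0.086 under spike-in scaling, and *kmt2e* lost its call without array 3 (0.36).

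*kmt2c* (MLL3), which primes enhancers with H3K4 monomethylation, had -0.82, -0.43, -0.07 and -0.82 (mean -0.53 ± 0.36, FC of 1.45, adjusted p = 0.0209, limma, n = 4). The arrays spread widely, array 3 lay close to 0, and the call was lost without array 1 or array 4 (mean -0.44 in both cases). Cy5 was well above background on 2 arrays and Cy3 on 4, so the probe passed the filter through the control dye. Its ratio can then be only a bound. *setd7*, the H3K4 monomethyltransferase that also binds MyoD, had -0.59, -0.20, -0.32 and -0.40 (mean -0.38 ± 0.16, adjusted p = 0.0113), at the very edge of the FC threshold of 1.3, and 9 of 18 alternatives kept its call. It was lost without array 1 (-0.31) and without array 4 (-0.37).

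*setd4* and *setd9*, less characterized SET domain genes, were both lower. *setd4* had -0.44, -0.39, -0.64 and -0.46 (mean -0.48 ± 0.11, FC of 1.40, adjusted p = 0.00253, limma, n = 4), with both probes called. Its call was lost after normexp (-0.30), without background correction (-0.34) and with limma's treat (adjusted p = 0.484). *setd9* had -0.25, -0.66, -0.64 and -0.19 (mean -0.43 ± 0.25, FC of 1.35, adjusted p = 0.0165), and the call was lost without array 2 (-0.36) or array 3 (-0.37). Among others, it was also lost after normexp (-0.22), without background correction (-0.25) and by the methods' t-test (adjusted p = 0.0939). The rest of the SET domain genes, *setd2*, *setd3*, *setd5* and *setd8*, ranged from -0.20 to 0.08 and were not called. *kmt2e* and *setd4* have further tested probes that are not shown. The *kmt2e* probe shown, at 0.48, lies near the top of its probe means, which ran from 0.25 to 0.49. The probes were picked by eye for a reading frame free of stop codons, so that frame is not a result. Given here is 1 probe for each of 1 higher and 2 lower genes of the SET domain group. They are *kmt2e* on chr4:5504057-5504116, *kmt2c* on the minus strand of chr4:92664256-92664315 and *setd4* on chr26:9511883-9511942.
kmt2e, A_69_P103597: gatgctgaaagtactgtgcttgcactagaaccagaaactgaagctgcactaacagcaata
kmt2c, A_69_P080896: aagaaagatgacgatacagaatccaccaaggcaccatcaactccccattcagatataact
setd4, A_69_P016682: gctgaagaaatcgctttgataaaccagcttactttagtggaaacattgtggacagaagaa

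*ezh2*, the H3K27 methyltransferase of Polycomb repressive complex 2, split the arrays. Its log2 ratios were 0.28 and 0.29 on arrays 1 and 2 but -0.56 and -0.51 on arrays 3 and 4. The mean of -0.13 ± 0.47 was not called (adjusted p = 0.575, limma, n = 4) and describes none of the arrays. Genes of cell division, with which *ezh2* is known to be expressed, split in the same places. Of 23 tested cell division genes, 23 lay above 0 on array 1 and 23 on array 2, but 1 on array 3 and 2 on array 4, and the median of the list was 0.59, 0.44, -0.43 and -0.16. None of the 23 was called (limma; 1 had an unadjusted p below 0.05, and the methods' t-test called 0). Each value is a ratio within an array, so it gives the balance of the HMB and control RNA and the level of neither. The part of this split in the *ezh2* values was not tested. *hdac2* did not follow the split. *ezh1*, the paralog found in resting cells, had no signal well above background.

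**Figure D2:**
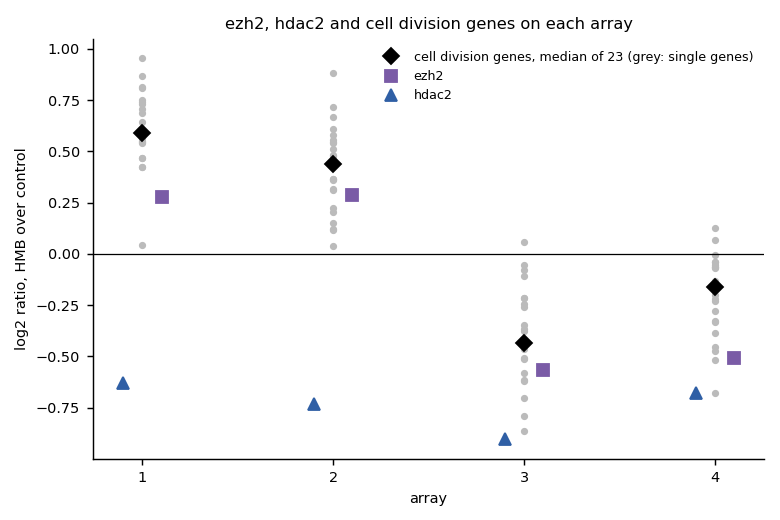
Log2 ratio (HMB over control) on arrays 1 to 4 of *ezh2* (squares), *hdac2* (triangles), 23 cell division genes (grey points) and their median (diamonds). The cell division median runs at 0.59, 0.44, -0.43 and -0.16, *ezh2* changes sign between the same arrays, and *hdac2* stays between -0.90 and -0.63.

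Among the arginine methyltransferases, 1 of 7 tested genes was called, where 28.6% of all genes were. *prmt2*, a weak methyltransferase that acts as a coactivator of nuclear receptors, had log2 ratios of -0.33, -0.56, -0.39 and -0.33 (mean -0.40 ± 0.11, FC of 1.32, adjusted p = 0.00495, limma, n = 4). The value was -0.30 both after normexp and without background correction, and the call ended in both, as it did without array 2 (-0.35). *prmt1*, which writes most asymmetric dimethylarginine, gave 0.36, 0.25, 0.05 and 0.10, above 0 on all arrays (mean 0.19 ± 0.14, adjusted p = 0.0856) and negative, -0.30, under spike-in scaling.

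*prmt5*, which writes symmetric dimethylarginine and is needed for early myogenic expression, had -0.30, -0.08, -0.39 and -0.44 (mean -0.30 ± 0.16, adjusted p = 0.0242, limma). It passed on p and not on FC, and 5 overlapping probes gave means between -0.33 and -0.27. *prmt3* spread from -0.80 to 0.03 (mean -0.35, adjusted p = 0.0758). *prmt6*, *prmt7* and *prmt10* had means of -0.17, -0.19 and -0.10 with adjusted p of 0.0651, 0.0942 and 0.319, and *prmt8*, a brain enzyme, had no signal well above background.

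Of the DNA methyltransferases and TET enzymes, 3 of 4 tested genes were called, where 28.6% of all genes were. *tet1* had log2 ratios of -1.11, -1.01, -0.59 and -0.74 (mean -0.86 ± 0.24, FC of 1.82, adjusted p = 0.00109, limma, n = 4). It was called in 16 of 18 alternatives and lost the call after normexp (-0.22, adjusted p = 0.0521) and without background correction (-0.32, under the FC threshold). *tet2*, the main TET enzyme of many adult tissues, had -0.09, -0.28, -0.08 and -0.14 (mean -0.15 ± 0.09, adjusted p = 0.12), all below 0 and not called. *tet3* had no signal well above background on any of its 5 probes. The *tet1* probes abut on chr1:56276457-56276516 and chr1:56276517-56276576 and cover 120 bases without overlap. They gave -0.96 and -0.76, and Cy5 was well above background on 2 arrays for the first and on 4 for the second. The first passed the filter through the control dye.
tet1, A_69_P095542: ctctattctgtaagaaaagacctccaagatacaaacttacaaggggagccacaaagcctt
tet1, A_69_P095541: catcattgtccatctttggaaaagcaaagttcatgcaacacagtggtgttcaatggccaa

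*dnmt3a*, the de novo methyltransferase, was lower with HMB, at -0.69, -0.51, -0.60 and -0.57 (mean -0.59 ± 0.08, FC of 1.51, adjusted p = 0.00083, limma, n = 4). *dnmt3l*, its catalytically inactive partner known from germ cells, was higher, at 0.49, 0.66, 0.84 and 0.72 (mean 0.68 ± 0.15, FC of 1.60, adjusted p = 0.00102). Both calls were lost after normexp (-0.18 and 0.11) and without background correction (-0.23 and 0.21). The call of *dnmt3a* was also lost with limma's treat, and that of *dnmt3l* under spike-in scaling (0.19). The *dnmt3a* probe had Cy3 well above background on 4 arrays and Cy5 on 3, so it passed the filter through the control dye. *dnmt3b* had no signal well above background, and *dnmt1*, the maintenance enzyme, was not found under that name. The *dnmt3l* probe, on chr26:2381366-2381425, was above background in both dyes on 4 arrays, and a neighbour shifted by 1 base that was not tested gave 0.62. That neighbour had Cy3 well above background on 1 array and Cy5 on 3. It overlaps the tested probe, so its value is not independent.
dnmt3l, A_69_P017012: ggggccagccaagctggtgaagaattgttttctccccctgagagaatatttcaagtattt

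The PRDM genes encode zinc finger proteins with a SET-like domain, and 2 of 4 tested were called, both lower. Of all genes, 16.2% were called lower. *prdm4* had -0.47, -0.78, -0.68 and -0.60 (mean -0.63 ± 0.13, FC of 1.55, adjusted p = 0.00108, limma, n = 4). Its call was lost after normexp (-0.20), without background correction (-0.29) and with limma's treat (adjusted p = 0.0563). *prdm10* had -0.46, -0.34, -0.43 and -0.69 (mean -0.48 ± 0.15, FC of 1.40, adjusted p = 0.00404), a mean that includes a probe with Cy5 well above background on no array. Without that probe the mean was -0.36 (adjusted p = 0.0101), under the FC threshold, and the call was lost. *prdm2* had a mean of -0.0065, with arrays on both sides of 0, and 6 further PRDM genes were not tested for lack of signal.

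The *prdm10* ratio differed between nearly identical probes. The gene has 4 tested probes that differ by at most 5 bases in position, on the minus strand of chr7:35104660-35104724, and share 55 bases, in capitals here. None had Cy5 well above background on all arrays, so all passed the filter through the control dye.
prdm10, A_69_P069545: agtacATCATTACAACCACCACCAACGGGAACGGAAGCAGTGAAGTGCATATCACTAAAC
prdm10, A_69_P069543: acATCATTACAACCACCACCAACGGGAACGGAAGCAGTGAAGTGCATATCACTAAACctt
prdm10, A_69_P069542: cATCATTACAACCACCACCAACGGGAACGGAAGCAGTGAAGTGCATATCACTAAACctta
prdm10, A_69_P069541: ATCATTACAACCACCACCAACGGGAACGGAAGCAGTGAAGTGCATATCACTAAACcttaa
In the order shown, the means were -0.28, -0.51, for the third only a bound (at least 1.36-fold lower, as Cy5 was not well above background on any array) and -0.30. The adjusted p of the third, 0.00335 (limma), belongs to its ratio as deposited, and the bound was not tested. The first and last were not called and the others were. The single *prdm4* probe lies on the minus strand of chr28:30455431-30455490 and had both dyes above background throughout.
prdm4, A_69_P021051: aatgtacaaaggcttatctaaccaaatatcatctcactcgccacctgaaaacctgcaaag

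Of the 49 tested members, 33 rest on 1 probe and 16 on several. In 14 of these 16 the lowest and highest probe means had the same sign, and in the other 2, *kdm5a* (-0.01 and 0.16) and *setd2* (-0.03 and 0.05), both were close to 0. The 7 probes of *kmt2e* lie at 2 places of the transcript, and their means ran from 0.25 to 0.49. Probes of *kdm2b*, *kdm4a*, *kmt2e*, *prdm10*, *prmt5* and *setd8* were shifted by a few bases against each other, so that their agreement is not independent. At the level of single probes, 29 of the 84 tested were called, against 28.3% of all probes.

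**Figure D3:**
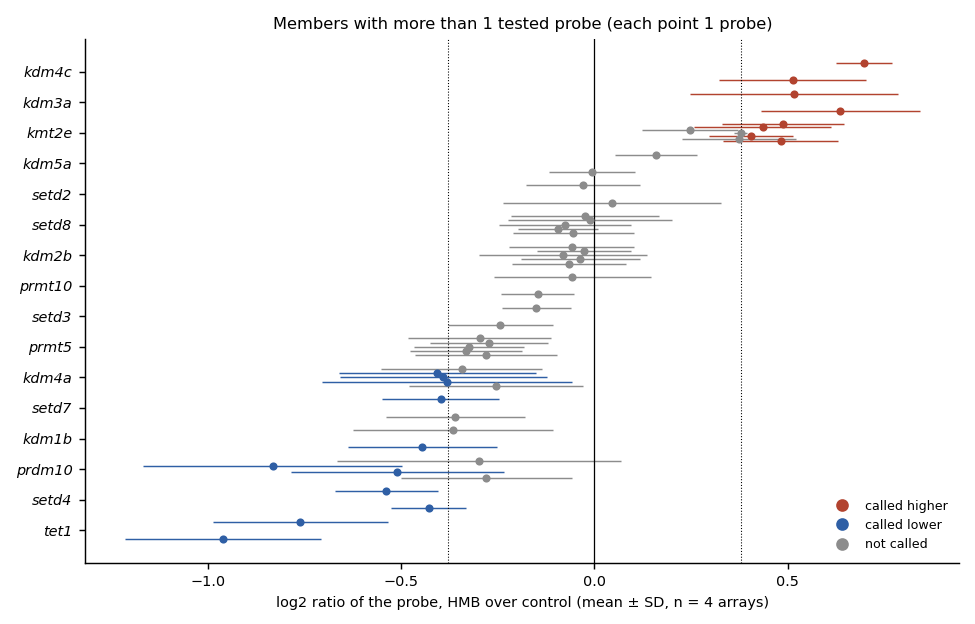
Mean log2 ratio (HMB over control) of each tested probe of the 16 members with more than 1, with the SD over 4 arrays; red and blue mark called probes. Probes of *tet1*, *setd4*, *kdm3a* and *kdm4c* were all called in 1 direction, while those of *kdm1b*, *setd7*, *kdm4a*, *prdm10* and *kmt2e* fell on both sides of the FC threshold (dotted).

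Under the other background corrections the called members kept their sign but not their size. All 18 had the sign of the main analysis after normexp, without background correction and after median centring, and 16 had it under spike-in scaling. After normexp, *prdm10* was at -0.068, *dnmt3l* at 0.11 and *hdac2* at -0.66. Median centring without lowess called 14 members, 13 of them among the 18, against 28.7% of all genes.

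**Figure D4:**
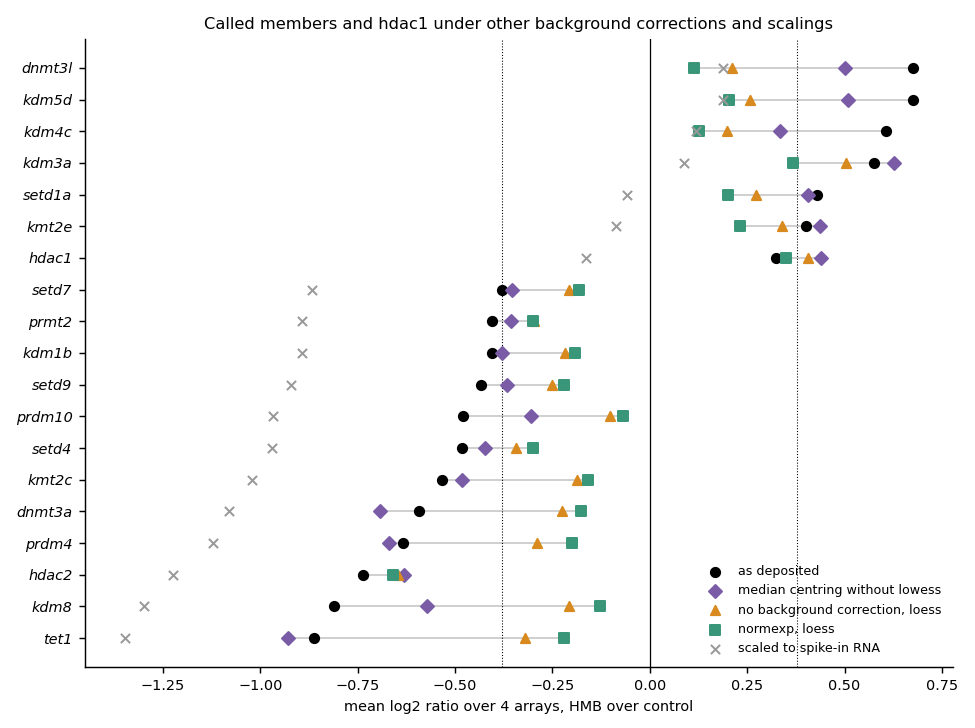
Mean log2 ratio over 4 arrays of the 18 called members and *hdac1*, as deposited (black circles), after median centring without lowess (diamonds), without background correction (triangles), after normexp (squares) and scaled to spike-in RNA (crosses). The first 4 points of *hdac2* lie between -0.74 and -0.63, whereas *tet1* moves from -0.86 to -0.22, and *setd1a*, *kmt2e* and *hdac1* turn negative under spike-in scaling.

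Genes that work with these enzymes were taken from lists of complexes and reactions. Of 60 such partner genes tested, 10 were called, 3 higher (all 3 negative under spike-in scaling) and 7 lower, or 16.7% against 28.6% of all genes, with a median of -0.13. Of 11 tested genes on the list of HDAC corepressors, 0 were called (limma, with 4 at an unadjusted p below 0.05), and the methods' t-test called 0. Their ratios lay between -0.34 and 0.22. That list leaves out *rbbp7*, which is counted below with Polycomb repressive complex 2. Of 8 tested COMPASS subunits, 2 were lower: *rbbp5*, a core subunit, with -0.40, -0.40, -0.44 and -0.42 (mean -0.42 ± 0.02, SD, adjusted p = 0.00239), and *men1*, the menin scaffold of the MLL complexes, with -0.37, -0.45, -0.64 and -1.26 (mean -0.68 ± 0.40, adjusted p = 0.0124). *rbbp5* differed little between arrays, whereas *men1* was lowest on array 4.

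Of 5 tested subunits of Polycomb repressive complex 2, *rbbp7*, a histone chaperone, was lower, at -0.41 ± 0.10 (adjusted p = 0.00447, limma, n = 4). *mef2a*, a partner of class IIa HDACs, was lower at -0.38 ± 0.17 (adjusted p = 0.0113), and *mef2c*, at -0.25, was not called. *gadd45a* and *gadd45b*, stress-response genes linked to DNA demethylation, were lower at -0.54 ± 0.22 and -0.51 ± 0.18 (adjusted p of 0.00536 and 0.00437). They were the 2 called among 9 readers and repair factors of DNA methylation.

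The acetyltransferases were divided, with 3 of 10 called. *ncoa1*, a nuclear receptor coactivator, was lower at -0.65 ± 0.17 (adjusted p = 0.00142, limma, n = 4), its paralog *ncoa3* was higher at 0.46 ± 0.21 (adjusted p = 0.00932), and so was *kat5* (Tip60) at 0.38 ± 0.10 (adjusted p = 0.00567), the latter pair turning to -0.032 and -0.11 under spike-in scaling. Of 14 tested methyltransferases outside the symbol rule, *ehmt2* (G9a), which writes the H3K9 dimethylation that *kdm3a* removes, was called higher, with 0.34, 0.68, 0.40 and 0.49 (mean 0.48 ± 0.15, adjusted p = 0.00412), and turned to -0.013 under spike-in scaling. One further demethylase was tested and not called (-0.19).

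**Figure D5:**
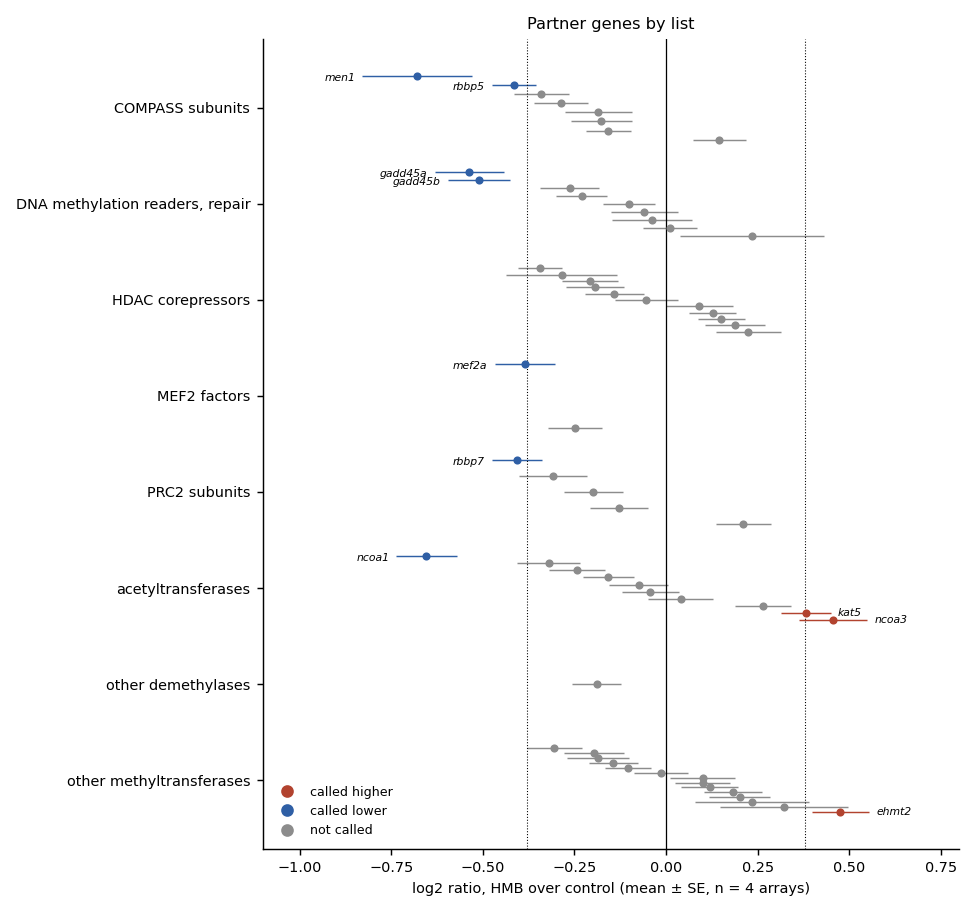
Mean log2 ratio (HMB over control) of 60 partner genes by list, with the SE over 4 arrays; dotted lines mark an FC of 1.3. Called genes are named: 7 lie to the left, from *mef2a* at -0.38 to *men1* at -0.68, and 3 to the right, with *ehmt2* at 0.48 the farthest, all 3 of which turn negative under spike-in scaling.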

How the data were processed

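The scanner files of 4 two-colour arrays were used, each of which pairs HMB RNA (Cy5) with control RNA (Cy3). The log10 values are ratios that the authors' Feature Extraction software (version 10.10.1.1 per the file headers) wrote after background subtraction and lowess within the array, and were multiplied here to log2 values. The intensity values in the deposited files are spot brightnesses per channel. Their deposited normalized table differed from these by at most 3.96e-05. Where a signal did not exceed background, the software put in a substitute, and a dim ratio can be only a bound. The number of arrays limits the precision.

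Control spots were removed, as were spots with an outlier flag (13 to 35 per array). Spots of a probe were averaged, and then the probes of a gene name with 1 or both dyes well above background on all arrays and at least 3 ratios. A total of 14107 gene names and 24880 probes were tested with R 4.3.3 and limma 3.58.1 (intercept, empirical Bayes, Benjamini-Hochberg over all of them). The tests were tried on simulated data. The alternatives were 4 filters or probe rules (1 added after seeing the data), 2 background corrections, other scalings (median centring, scale, spike-in, GC), the deposited table, 3 other tests and leaving out each array. For the bound, the mean Cy3 signal was set against Cy5 at the lowest signal well above background on each array. The members and lists were chosen with earlier results of these data known. All called members were named, with the class I and IIa HDACs, EZH1/2, DNMTs, TETs, *kdm1a*, *kdm6a/b*, *setd7* and PRMTs, and at most 3 called genes per partner list. *kdm3b*, *kdm4a*, *kdm5a*, *kdm5b*, *kdm5c*, *hdac6*, *hdac10*, *prdm2*, *setd2*, *kdm2a*, *kdm2b*, *jmjd8*, *setd5*, *setd8*, *mef2c* and *des* were added after their values were seen. Values of 1 tested member and 1 marker are not reported here. Sequences and EquCab1 positions were taken from the scanner files.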

Additional observations from a re-analysis of the deposited data

Results flagged for a closer look

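On array 2, the log2 ratio of *kdm4a* was 0.0049, apart from the other 3 arrays, which lay between -0.49 and -0.47. On array 3, *kdm3b* had -0.50, apart from -0.29 to -0.26 on the others. These were the 2 of 49 tested members in which a single array stood apart from the rest of 4 by Dixon's test, about as many as chance flags (1 in 20). Without array 2 *kdm4a* was called lower (mean -0.48).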

How the results depend on the processing

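The number of called members was 18 (6 higher, 12 lower). It was 1 (0 and 1) with normexp, 3 (2 and 1) without background correction, 38 (0 and 38) under spike-in scaling and 4 (1 and 3) with limma's treat. Over all genes, 1799, 2391, 10378 and 1524 were called in these instead of 4041. The share of calls that were higher was 43.4%, and 57.1%, 62.1%, 6.26% and 53.7% in these. The methods' t-test called 12 members and 2722 genes. Called member probes numbered 29, and 1, 7, 64 and 6 in the same order, and 18 by the t-test. Called partner genes numbered 10, and 4, 4, 44 and 0, and 6 by the t-test. The median of the members, -0.13, became -0.021 with normexp, -0.026 without background correction, -0.62 under spike-in scaling and -0.093 without a filter on dim probes.

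Under spike-in scaling, *hdac1* (-0.16), *hdac5* (-0.45), *hdac7* (-0.28), *hdac10* (-0.18), *kdm2a* (-0.44), *kdm5a* (-0.41), *kdm5c* (-0.39), *kdm6b* (-0.26), *kmt2e* (-0.086), *prmt1* (-0.30), *setd1a* (-0.059), *setd2* (-0.48) and *setd5* (-0.41) turned negative. The other reversals were of members not called. With normexp *jmjd8* (0.029), *kdm2b* (0.012) and *kdm5c* (-0.012) changed sign, and without background correction *hdac6* (0.015), *jmjd8* (0.023), *kdm2b* (0.033), *prdm2* (0.0095) and *setd8* (0.029). After median centring *kdm2b* (0.019), *setd2* (-0.0058) and *setd8* (0.0090) did, and *setd2* also on its brightest probe (-0.030) and after scale normalization (-0.0070). When each replicate was left out in turn, *ezh2* ranged from -0.26 to 0.019, *hdac6* from -0.15 to 0.0046, *jmjd8* from -0.054 to 0.023, *kdm2a* from -0.041 to 0.098, *kdm5c* from -0.0038 to 0.20, *prdm2* from -0.051 to 0.079, *setd2* from -0.055 to 0.11, *setd5* from -0.042 to 0.20 and *setd8* from -0.11 to 0.020. Of 858 values of the 48 members named in the text under the alternatives, 714 kept direction and call, 81 lost the call, 26 gained it and 37 reversed. The number of called members stayed between 16 and 18 when each replicate was left out. The cause of these differences was not tested. The slide as a block could not be fitted, since all arrays lie on 1 slide. A filter on both dyes left 43 members, with 13 called, and removed *dnmt3a*, *kdm5d*, *kdm8*, *kmt2c*, *prdm2* and *prdm10*, so for these genes the signal over background sets the limit.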
